A study of Mus musculus with 147 samples.

Results

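The genes described here are the nuclear genes for subunits of the oxidative phosphorylation system, followed through male germ cell development in the mouse. They were taken by symbol alone, as every gene whose name begins with Nduf followed by a, b, c, s or v and a digit, is Sdha, Sdhb, Sdhc or Sdhd, or begins with Uqcr, with Cox4 to Cox8 or with Atp5. This rule took 84 of the 31053 genes in the tables, with 35 in complex I, 4 in complex II, 8 in complex III, 20 in complex IV and 17 in ATP synthase. Ndufa4 and Ndufa4l2 were counted with complex IV, where the Ndufa4 protein is known to sit. No UMI was counted for Atp5o, whose reads were listed under Atp5o.1, and Cox8b had 77 UMIs over the germ pools and did not pass the filter on low counts, so 82 members were tested.

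Oxidative phosphorylation takes place on the inner mitochondrial membrane. Complex I oxidises NADH and complex II oxidises succinate, both hand electrons to ubiquinone, complex III passes them to cytochrome c and complex IV passes them to oxygen, and the proton gradient built on the way drives ATP synthase. Most subunits are encoded in the nucleus and a small core in mitochondrial DNA, except that complex II is nuclear throughout. Several complex IV subunits have paralogues that are known from 1 tissue or condition, among them the testis forms Cox6b2, Cox7b2 and Cox8c. Late male germ cells are also known for silencing the X chromosome during meiosis and for using retrogenes and testis isoforms of metabolic enzymes.

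Single cells of wild-type offspring of C57BL/6 females and double transgenic BVSC males (Blimp1-mVenus and Stella-ECFP reporters, carried by every group) were profiled at 28 time-points from embryonic day (E) 6.5 to adult (8–10 weeks). Cells of E6.5 and E7.5 came from random and epiblast gates of embryos, those of E8.5 to E10.5 were BVSC-positive cells of digested embryos, those of E11.5 to E18.5 were reporter-positive and reporter-negative cells of gonads, and those after birth were picked by germ cell morphology from testis, apart from PND30 cells sorted by DNA content. No sex is listed for part of the E10.5 cells. The study describes choosing males by PCR for Sry at E10.5 and E11.5, so pools before E11.5 may hold cells of both sexes. Cells were classed as germ or somatic by clusters made without the 84 genes, the UMIs of each class were summed over the cells of 1 time-point and replicate into a pool, and levels are given as UMIs per 1000000 UMIs of the pool (CPM). A UMI marks 1 molecule by its 3′ end, so levels of different genes can be set side by side without a length correction. A total of 11598 of 11896 wild-type cells passed the filter, of which 8325 were germ cells, 1163 somatic cells and 1626 cells of E6.5 and E7.5, while 484 were left without a class.

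The main series is formed by 7 groups of germ cell pools. Migrating primordial germ cells (PGCs) are 5 pools of E9.5 and E10.5, gonadal PGCs 6 pools of E11.5 to E13.5, mitotically arresting germ cells 6 pools of E14.5 to E16.5, quiescent prospermatogonia 5 pools of E17.5 to PND0, and spermatogonia 6 pools of PND5 to PND7. The last 2 groups are PND30 germ cells sorted as 4N, which holds meiotic cells, and as 1N, which holds round spermatids, with 2 pools each. The pools of a group join neighbouring time-points, so the spread within a group holds change with age as well as variation between collections. Per the study, a replicate pooled several embryos or gonads up to E18.5 and came from 1 animal or gonad from PND0 on, so the 4N and 1N pools of a replicate share their animal. The summed UMIs ranged from 16808218 to 78005360 in these 32 pools, with 57 to 192 cells each. At E17.5 none of the 72 reporter-positive cells of replicate 1 was classed as germ, and this time-point rests on replicate 2, as does E8.5.

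Members were expressed at a level that ranged widely between genes and little between most germ pools. A value above 0 was found in every germ pool for 79 members. Over the germ pools the highest medians belonged to Cox4i1 (835 CPM), Cox7c (765 CPM) and Cox6a1 (689.5 CPM), all subunits of complex IV, and the lowest among genes without a tissue-restricted paralogue were Uqcrc2 (34.8 CPM), a core protein of complex III, and Atp5s (47.7 CPM), a coupling factor of ATP synthase. The highest germ pool lay at most 3-fold above the lowest for 44 members, among them Ndufs5 (1.54-fold), Ndufa2 (1.59-fold) and Cox5b (1.70-fold). Among the 79 members it lay over 10-fold above the lowest for 12. These took in Cox8c, Cox7b2, Cox7a1, Cox7b, Ndufb11, Cox6b2, Ndufa4, Atp5g2, Cox8a, Atp5s and Ndufa1. Of these 12, 8 belong to the 19 members that have a paralogue within the set. Paralogues with 0 CPM in their lowest pool have no such ratio and are not counted. Among them, Ndufa4l2, Cox4i2 and Cox6a2 reached 115.4, 49.95 and 26.25 CPM in their highest pool.

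The mean level of the 84 genes was highest in PGCs, fell towards birth, recovered in spermatogonia and was lowest in haploid cells. It was 429.9 ± 14.8 CPM in migrating PGCs (SD, n = 5) and 429.1 ± 31.2 CPM in gonadal PGCs (n = 6), where single pools lay between 391 and 479 CPM. It was 384 ± 27.3 CPM in arresting germ cells (n = 6) and 325 ± 13.6 CPM in quiescent prospermatogonia (n = 5), whose pools, at 310.4 to 347 CPM, all lay below the lowest arresting pool at 354 CPM. Spermatogonia held 388 ± 17.47 CPM (n = 6), again without overlap with the quiescent pools. The pair of 4N pools held 290.1 and 337 CPM and the pair of 1N pools 268 and 261 CPM. As a share of all UMIs this is 3.61% in migrating PGCs, 2.73% in quiescent prospermatogonia, 3.26% in spermatogonia and 2.22% in 1N cells. These set means describe the members together and carry no test.

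**Figure D1:**
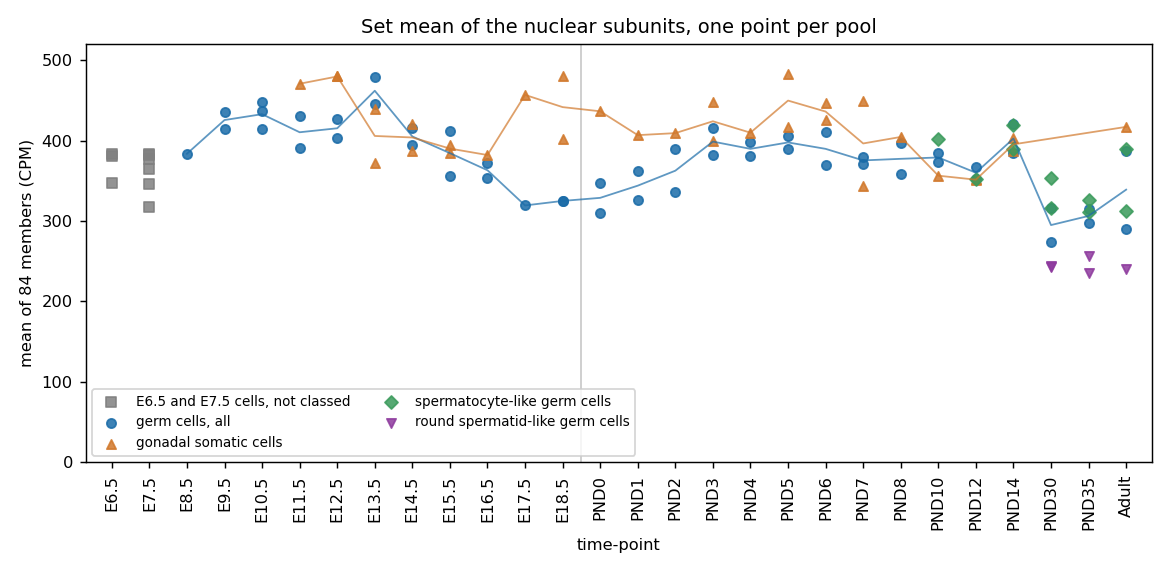
Mean CPM of the 84 genes in each pool (vertical axis) by time-point (horizontal axis), for germ cells, somatic cells and cells of E6.5 and E7.5, with the grey vertical line at birth. Germ pools drop from 391 to 479 CPM at E11.5 to E13.5 to 310.4 to 347 CPM at E17.5 to PND0, while somatic pools stay between 344 and 482 CPM.

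The complexes did not move by the same amount. ATP synthase genes averaged 516 CPM in gonadal PGCs, 361 CPM in quiescent prospermatogonia, 454 CPM in spermatogonia and 306 CPM in 4N cells. Complex III went from 461 to 315, 413 and 367 CPM in the same groups, complex I from 396 to 319, 364 and 304 CPM, and complex IV from 431 to 333, 384 and 335 CPM. Complex II held 278 CPM in gonadal PGCs and 275 CPM in arresting germ cells, dropped to 213 CPM in quiescent prospermatogonia, returned to 279 CPM in spermatogonia and ended at 111.1 CPM in 1N cells. It had the lowest mean of the 5 complexes in each of the 7 groups. The 13 subunits encoded in mitochondrial DNA followed another course: they took 1.31% of UMIs in migrating PGCs, 1.79% in arresting germ cells, 1.503% in quiescent prospermatogonia, 1.69% in spermatogonia, 0.611% in 4N and 0.298% in 1N cells.

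Counted gene by gene, the group with the highest mean of the 7 was migrating PGCs for 29 of the 83 members with UMIs, gonadal PGCs for 16 and arresting germ cells for 15. The group with the lowest mean was 1N for 42 members, and quiescent prospermatogonia and 4N for 14 members each. Among the first 5 groups alone, quiescent prospermatogonia held the lowest mean for 50 members.

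Each step between successive groups was tested gene by gene with edgeR's quasi-likelihood test over all 24767 genes that passed the filter, with Benjamini-Hochberg adjustment and a threshold of 0.05. Its fold changes are scaled by the trimmed mean of M-values (TMM) and not by the UMI total alone. A gene can therefore gain CPM and have a negative log2 fold change, and both values are given. The scaling did not hold the median gene at 0 in every step. Over all genes the median log2 fold change was 0.55 to arresting germ cells, 0.28 to quiescent prospermatogonia and -0.55 to spermatogonia. Successive steps share a group of pools, so their results are not independent of each other.

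From migrating to gonadal PGCs few members changed. Of the 82 members tested, 2 rose and none fell by edgeR's test (6 had an unadjusted p under 0.05), where 8.33% of all genes were called, 4.84% higher and 3.49% lower, and the median member changed by -0.02 against 0 for all genes on the log2 scale. Cox7b2, the testis paralogue of the small complex IV subunit Cox7b, held 7.06, 5.98, 3.93, 9.501 and 10.6 CPM in the migrating pools and 10.7 to 47 CPM (median 30.3 CPM) in the gonadal pools, which did not overlap. Its log2 fold change was 1.98 ± 0.27 (SE, adjusted p = 2.7e-05). Ndufa4l2, a paralogue of Ndufa4 known from hypoxia, was called at a level close to 0, with a mean of 0.235 CPM in migrating and 1.86 CPM in gonadal PGCs and overlapping pools (log2 fold change 3.00 ± 0.89, adjusted p = 0.033), and the call was lost in 7 of 32 refits without 1 pool. Cox7a1, the isoform known from heart and muscle, had 91.8 to 134.8 CPM against 161 to 211 CPM without overlap, and its change of 0.73 ± 0.24 missed the threshold (adjusted p = 0.055). None of the 4 complex II genes was called, with log2 fold changes of -0.10 ± 0.12 for Sdha, 0.11 ± 0.14 for Sdhb, 0.29 ± 0.20 for Sdhc and -0.45 ± 0.32 for Sdhd.

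Between gonadal PGCs and arresting germ cells most members fell. Of 82, 55 fell and 5 rose, where 49.9% of all genes were called, 33.3% higher and 16.6% lower, and the median member changed by -0.45 on the log2 scale against 0.55 for all genes tested. The falls covered 21 of 35 complex I genes, 2 of 4 in complex II, 7 of 8 in complex III, 12 of 19 tested in complex IV and 13 of 16 in ATP synthase. The scaling matters for this split: with DESeq2's size factors 46 members fell and 6 rose, and with plain library sizes 34 fell and 13 rose.

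Atp5f1, the b subunit of the stalk of ATP synthase, had 427 to 549 CPM and then 125.97 to 368 CPM (log2 fold change -1.37 ± 0.25, adjusted p = 6.9e-05). Falls of like size were found for the complex I genes Ndufa12, with group means of 495 and 244 CPM (-1.26 ± 0.23), and Ndufv2, with 416 and 213 CPM (-1.21 ± 0.22), and for Uqcrc2, with 44.5 and 23.1 CPM (-1.23 ± 0.29). In each of these 4 genes every arresting pool lay below every gonadal pool.

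The 5 members that rose were 4 complex IV paralogues and Ndufs8, an iron-sulphur core subunit of complex I. Cox7b2 went from a mean of 29.9 CPM to 79.6 to 244 CPM (median 191 CPM), and Cox8c, the testis paralogue of Cox8a, from 4.85 to 16.2 CPM (median 6.47 CPM) to 21.4 to 76.4 CPM (median 49.3 CPM). Both had a log2 fold change of 2.20, with SEs of 0.25 and 0.30 and adjusted p of 1.6e-07 and 1.7e-06, and neither overlapped. Cox6a2, the heart and muscle form of Cox6a1, had 1 UMI in all gonadal pools and 299 UMIs in the arresting pools, a ratio of 267.8 in UMI share with an exact 95% counting interval of 47.7 to 10611. Cox4i2, a form of Cox4 known from lung and low oxygen, held 0.117 CPM and then 4.57 CPM, with pools from 0 to 13.9 CPM that overlapped (4.68 ± 1.29, adjusted p = 0.0041). Of their widely expressed partners Cox7b changed by -0.60 ± 0.18, Cox8a by -0.60 ± 0.11 and Cox6a1 by -0.48 ± 0.10, all called, while Cox4i1 was not called (-0.17 ± 0.09, adjusted p = 0.093) and had means of 763 and 851 CPM. Both genes of the Cox6b pair were called lower, Cox6b1 by -0.56 ± 0.12 and Cox6b2 by -1.13 ± 0.32 (adjusted p = 0.0050). The call of Ndufs8 was lost without E15.5 replicate 2 or E16.5 replicate 1 (adjusted p up to 0.070).

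From arresting germ cells to quiescent prospermatogonia most members fell. By edgeR's test 59 of 82 members fell and 1 rose, where 27% of all genes were called, 10.4% higher and 16.6% lower, and the median member changed by -0.61 against 0.28. Falls were called in 24 of 35 complex I genes, 3 of 4 complex II genes, 6 of 8 in complex III, 12 of 19 in complex IV and 14 of 16 in ATP synthase. With DESeq2's size factors 37 fell and 3 rose, and with plain library sizes 36 fell and 3 rose. Markers of other cells moved with these groups: gonadal somatic markers summed to 51.02 to 427 CPM in the arresting, 422 to 717 CPM in the quiescent and 84.1 to 367 CPM in the spermatogonia pools, and blood markers to 12.6 to 163, 242 to 502.5 and 17.4 to 95.7 CPM. Their part in this step and the next was not tested.

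Cox6b2 had the largest fall of the members called. It held 36.7 to 228 CPM (median 133.5 CPM) in arresting germ cells and 13.49, 10.9, 11.1, 16.1 and 19.5 CPM in the quiescent pools, all of which lay below the lowest arresting pool. The log2 fold change was -3.67 ± 0.38 (adjusted p = 1.3e-07). Atp5g2, 1 of 3 genes for the c subunit of the ATP synthase ring, went from a mean of 478 CPM to 219 CPM (-1.56 ± 0.17), and Cox7b from 448 to 216 CPM (-1.48 ± 0.20), both without overlap.

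Complex II was part of this step. Sdha, the flavoprotein that oxidises succinate, had 322 to 357 CPM and then 261 to 306 CPM (-0.63 ± 0.12, adjusted p = 1.8e-04), and Sdhc, a membrane anchor, had 165 to 366 CPM and then 130.4 to 153 CPM (-1.39 ± 0.20, adjusted p = 1.0e-05), neither with overlap. Sdhb, the iron-sulphur subunit, fell by 0.61 ± 0.14 on the log2 scale with overlapping pools, while Sdhd, the other anchor, had a change of -0.79 ± 0.32 that missed the threshold (adjusted p = 0.067). Cox6a2 was the only member called higher in this step, with 0 to 5.07 CPM in arresting and 14.1, 14.8, 9.19, 18.1 and 19.2 CPM in quiescent pools (2.69 ± 0.94, adjusted p = 0.032), a call that was lost in 6 of 32 refits without 1 pool (adjusted p up to 0.068). Cox4i2 reached 49.6, 45.5, 24.4, 27.4 and 49.95 CPM, above every arresting pool, with an adjusted p of 0.058. Cox4i1, Cox6a1, Atp5g3 and Atp5j were called lower although their mean CPM was higher, so their direction rests on the scaling, and their calls were lost in 5 to 15 of the refits. For Cox4i1, for example, the means were 851 and 871 CPM and the log2 fold change was -0.34 ± 0.09.

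Outside the 84 genes, 11 of the 13 mitochondrially encoded subunits and 22 of 44 assembly factors tested were called lower in this step, and none of either was called higher. Over all genes 16.6% were called lower and 10.4% higher.

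Between quiescent prospermatogonia and spermatogonia most members rose. Of 82 members, 68 rose and 1 fell, where 55% of all genes were called, 21.6% higher and 33.5% lower, and the median member changed by 0.68 against -0.55. The rises took in 30 of 35 complex I genes, all 4 complex II genes, 6 of 8 in complex III, 13 of 19 in complex IV and 15 of 16 in ATP synthase. In 36 of the 69 members called the pools of the groups did not overlap. In the steps to gonadal, arresting, quiescent, 4N and 1N cells this held for 1, 22, 21, 33 and 15 of the called members. The like share over all genes was not computed, so these counts are not read as a result about the members. Here too the scaling sets the size of the count, since DESeq2's size factors gave 40 rises and 11 falls, and plain library sizes 41 and 11.

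Cox6b2 rose from the 5 quiescent values above to 51.9 to 80.9 CPM (median 56.1 CPM), with a log2 fold change of 2.53 ± 0.36 (adjusted p = 2.0e-06). Atp5f1 went from 153 to 245 CPM up to 384 to 497 CPM (1.67 ± 0.27), and Uqcr10, a small subunit of complex III, from 168 to 268 CPM up to 429 to 506 CPM (1.61 ± 0.18). Ndufc1, an accessory subunit of complex I, held 154 to 196 CPM and then 387 to 448 CPM (1.66 ± 0.23). None of these 4 genes overlapped between the groups.

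All 4 complex II genes were called higher, Sdhd by 1.49 ± 0.33, Sdhc by 1.17 ± 0.20, Sdhb by 0.69 ± 0.14 and Sdha by 0.55 ± 0.12. Cox4i2 was the exception of the set and fell from 24.4 to 49.95 CPM to 0 to 1.43 CPM (-4.95 ± 1.26, adjusted p = 0.0018). Cox6a2 dropped from a mean of 15.1 to 2.65 CPM without overlap and missed the threshold (-2.03 ± 0.92, adjusted p = 0.060). Another 6 members were called higher although their mean CPM was lower, Cox4i1 among them with 871 and 824 CPM and a log2 fold change of 0.38 ± 0.09, which turned to -0.037 with DESeq2's size factors and was not called without PND0 replicate 1 or PND6 replicate 2. Of the other lists, 12 of 13 mitochondrially encoded subunits, 30 of 44 assembly factors, and 7 of 12 regulators of mitochondrial genes rose, where 21.6% of all genes did. Among the regulators Tfam, which packages mitochondrial DNA, had means of 61.6 and 106.7 CPM, and Ppargc1a, a coactivator, had 4.15 and 0.515 CPM.

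In the step from spermatogonia to 4N cells members were called in both directions, as were genes at large. Of 82 members 22 rose and 20 fell, where 60.4% of all genes were called, 33.2% higher and 27.1% lower, and the median member changed by 0.12 against 0. By complex, 12 rose and 8 fell in complex I, 3 and 1 in complex III, 5 and 7 in complex IV and 2 and 4 in ATP synthase, and none was called in complex II. This split depends on the scaling, with 44 rises and 16 falls by DESeq2's size factors and 11 rises and 44 falls by plain library sizes. The members named next kept their direction under each scaling. The 4N pools held round spermatid markers at 1271 and 1063 CPM in all and gonadal somatic markers at 17.1 and 14.1 CPM.

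All 3 members on the X chromosome were called lower, and Cox7b and Ndufb11 lost nearly all their UMIs. Cox7b, at chrX:106015700-106022450, held 273 to 394 CPM (median 340.4 CPM) in spermatogonia and 1.96 and 0.552 CPM in the 4N pools (log2 fold change -7.48 ± 0.42, adjusted p = 2.0e-15). Ndufb11, a membrane-arm subunit of complex I at chrX:20615326-20617619 whose exons overlap those of Rbm10 on the other strand, held 264 to 336 CPM and then 4.26 and 1.55 CPM (-6.14 ± 0.32, adjusted p = 5.0e-16). Ndufa1, at chrX:37187588-37191163, kept more, with 203 to 251 CPM and then 37.4 and 38.2 CPM.

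Other large falls were autosomal and lay in complex IV and ATP synthase. Cox7a1 went from 38.6 to 92.6 CPM down to 0.423 and 0.759 CPM (-6.32 ± 0.49), Ndufa4 from 513 to 616 CPM down to 23.8 and 28.03 CPM (-3.95 ± 0.27), and Cox8a from 581 to 664 CPM down to 31.2 CPM in both pools (-3.85 ± 0.21). Atp5g2 fell from 296 to 353 CPM to 23.8 and 22.03 CPM (-3.35 ± 0.28), and Cox6b1 from 535 to 614 CPM to 70.3 and 81.8 CPM (-2.44 ± 0.20). Cox4i2, with 243 UMIs in the spermatogonia pools, had none in the 4N pools, at least 34.9-fold lower when 3 UMIs over the 4N group are taken as the floor, and Cox6a2 went from 2.65 to 0.032 CPM. The call of Cox4i2 was lost without either 4N pool and that of Cox6a2 without replicate 2 of them. Apart from Cox4i2, these autosomal genes were without overlap.

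The largest rises were in the paralogues of the genes that fell. Cox8c went from 67.1 to 88.9 CPM (median 76.5 CPM) to 889 and 1170.4 CPM (4.23 ± 0.36, adjusted p = 2.5e-11), and Cox6b2 from 51.9 to 80.9 CPM to 552 and 664 CPM (3.81 ± 0.41, adjusted p = 2.8e-09). Ndufa4l2 rose from 0.616 to 3.25 CPM to 101.8 and 104.7 CPM (6.17 ± 0.95, adjusted p = 1.6e-06), and Cox7b2 from 277 to 351 CPM to 557 and 689 CPM (1.48 ± 0.32, adjusted p = 1.7e-04). Atp5s was the exception with no paralogue among the members, at 39.4 to 59.8 CPM and then 220 and 232 CPM (2.54 ± 0.29). Each of the 5 was above the spermatogonia in both 4N pools.

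Outside the 84 genes, other parts of the pathway with a testis form moved too. Cycs, the somatic cytochrome c, had 559 CPM in spermatogonia and 15.9 CPM in 4N cells, and Cyct, the testis form, 181 and 396 CPM. Pdha1, the X-linked E1 alpha subunit of pyruvate dehydrogenase, had 86.8 and 0.118 CPM, and its autosomal retrogene Pdha2 30.3 and 349 CPM. All 4 of these changes were called, and over the list of the tricarboxylic acid cycle and pyruvate dehydrogenase 9 of 18 genes rose and 7 fell. In this step 33.2% of all genes were called higher and 27.1% lower. All 13 mitochondrially encoded subunits were called lower, with a median log2 fold change of -1.10. Among the assembly factors 11 of 44 rose and 16 fell, and Ndufaf3, an assembly factor of complex I, stood out with 20.6 and 558 CPM.

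**Figure D2:**
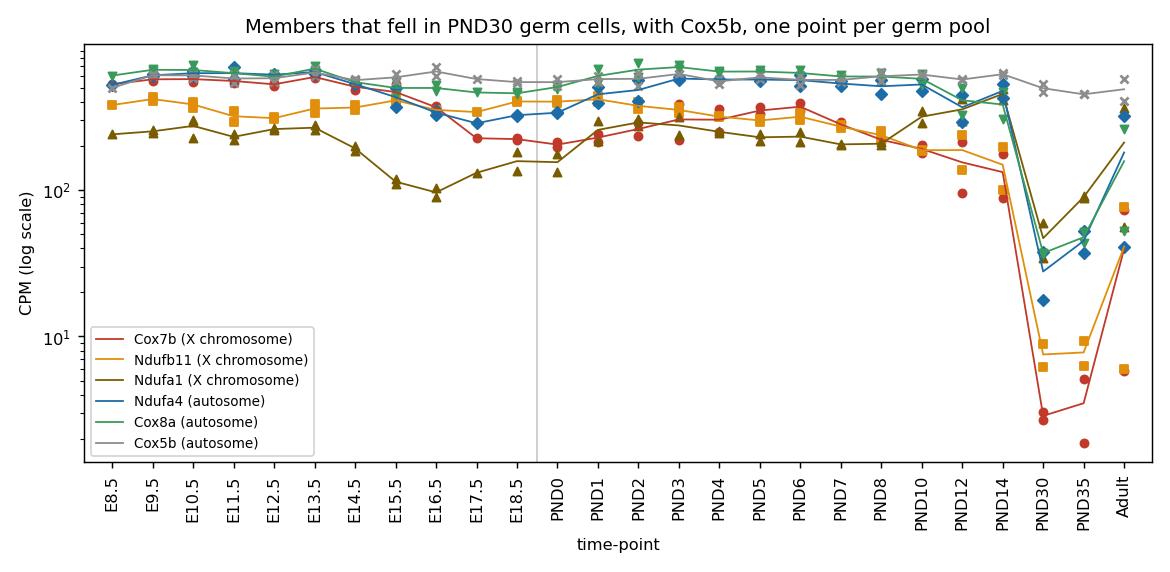
CPM on a log axis (vertical) of Cox7b, Ndufb11, Ndufa1, Ndufa4, Cox8a and Cox5b in each germ pool by time-point (horizontal axis). Cox5b, a complex IV gene without a paralogue, stays within 1.70-fold over the series, while Cox7b falls from 273 to 394 CPM at PND5 to PND7 to 1.86 CPM in its lowest pool. Pools are drawn without a split by DNA content.

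From 4N to 1N cells, where round spermatid markers went from 1271 and 1063 CPM to 5030 and 8082 CPM, 2 members rose and 13 fell by edgeR's test, where 15.2% of all genes were called, 5.88% higher and 9.29% lower, with a member median of -0.12 against 0. This step has 2 pools on each side, and its count depended most on the setting: 20 rose and 7 fell by DESeq2's size factors, 2 rose and 29 fell by plain library sizes, and 0 rose and 56 fell when spermatocyte-like and round spermatid-like clusters replaced the sort gates. The cluster setting also added pools of PND35 and adult, so ages, animals and the number of pools changed along with the classes. Without replicate 2 of the 1N cells 7 members were called.

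Complex II was among the complexes with falls. Sdhc had 168 and 180 CPM in 4N and 68.6 and 45.3 CPM in 1N cells (-1.38 ± 0.33, adjusted p = 0.0032), and Sdha 217 and 197 CPM against 123.2 and 92.3 CPM (-0.72 ± 0.19, adjusted p = 0.0081). Sdhd had 146.5 and 164 CPM against 60.4 and 35.3 CPM and missed the threshold (adjusted p = 0.063). Sdhb had 310 and 319 CPM in 4N and 202 and 262 CPM in 1N cells without overlap, and its scaled change was not called (-0.22 ± 0.22, adjusted p = 0.59). The calls of Sdhc and Sdha were lost without replicate 2 of the 1N cells (adjusted p = 0.111 and 0.218), and that of Sdha also without replicate 1 of the 4N cells.

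In complex I, Ndufc2 fell from 222 and 271 CPM to 73.1 and 77.6 CPM (-1.498 ± 0.16, adjusted p = 1.1e-07) and Ndufa3 from 281 and 351 CPM to 117.1 and 119.5 CPM (-1.20 ± 0.21, adjusted p = 1.1e-04). Atp5g3 went from 112.03 and 134.3 CPM to 40.5 and 36.4 CPM (-1.46 ± 0.16), and Uqcrc2 from 25.8 and 21.9 CPM to 7.38 and 5.53 CPM (-1.66 ± 0.51, adjusted p = 0.022), a call that was lost without replicate 2 of the 1N cells (adjusted p = 0.221) or either 4N pool. The members that rose were the X-linked Ndufb11, from 4.26 and 1.55 CPM to 14.52 and 11.6 CPM, and Cox7b, from 1.96 and 0.552 CPM to 3.09 and 4.70 CPM. With clusters in place of gates, and PND35 and adult pools added, both changes turned negative, at -0.15 for Ndufb11 and -1.31 for Cox7b. Among the testis isoforms the log2 fold changes between the gates were 0.24 ± 0.55 for Cox6b2, 0.02 ± 0.41 for Cox7b2 and -0.21 ± 0.48 for Cox8c, none of them called. All 13 mitochondrially encoded subunits were lower again, where 9.29% of all genes were called lower.

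The 19 members with a paralogue form 8 sets, and the share of each set's UMIs that a paralogue takes does not depend on the scaling between pools. The testis isoforms of complex IV did not come on together. Cox6b2 was present in PGCs from the start, with 17.51% of the Cox6b1 and Cox6b2 UMIs at E8.5, 28.8% at E13.5 and 27.97% at E14.5. It then almost vanished, with 7.84% at E16.5 and 2.54% at E18.5, held 8.75% to 10.6% from PND3 to PND7, and reached 87.5% at PND30.

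Cox7b2 and Cox8c began low and rose while Cox6b2 fell. Cox7b2 took 0.148% of its pair at E8.5, 14.6% at E14.5, 31.6% at E15.5 and 44.9% at E17.5, then stayed between 44.9% and 54.8% until PND10 and reached 99.5% at PND30. Cox8c took 0.163% of the Cox8 UMIs at E8.5, 3.93% at E14.5, 12.6% at E16.5 and 16.6% at E17.5, between 10.2% and 18.3% from E18.5 to PND10, and 95.99% at PND30. So at E17.5 the testis form made up close to 45% of the Cox7b pair, 16.6% of Cox8 and 3.25% of the Cox6b pair in the same cells. Ndufa4l2 came last, with at most 2.86% of its pair up to PND14 and 77.3% at PND30.

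Other sets shifted around birth without a testis form. Cox7a2l, which encodes a supercomplex assembly factor, took 28.7% of the Cox7a UMIs in gonadal PGCs, 46.7% in arresting germ cells, 55.6% in quiescent prospermatogonia and 36.9% in spermatogonia, while Cox7a2 went from 57.4% to 42.2%, 33.99% and 56.95%. Its own level was 602 CPM in quiescent prospermatogonia against 374 CPM in gonadal PGCs, and no step was called for it. Cox4i2 peaked at 5.57% of Cox4 at E17.5 and Cox6a2 at 3.51% of Cox6a at PND1, and both were under 0.5% at PND5. The c subunit genes Atp5g1, Atp5g2 and Atp5g3, whose mature proteins are known to be identical, took 44.6%, 33.3% and 22.2% in migrating PGCs, 48.2%, 16.8% and 35% in quiescent prospermatogonia and 78.8%, 8.39% and 12.8% in 1N cells. Atp5g1 thus ended as the main source of c subunit transcripts although its own level was 752 CPM in migrating PGCs and 238 CPM in 1N cells.

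**Figure D3:**
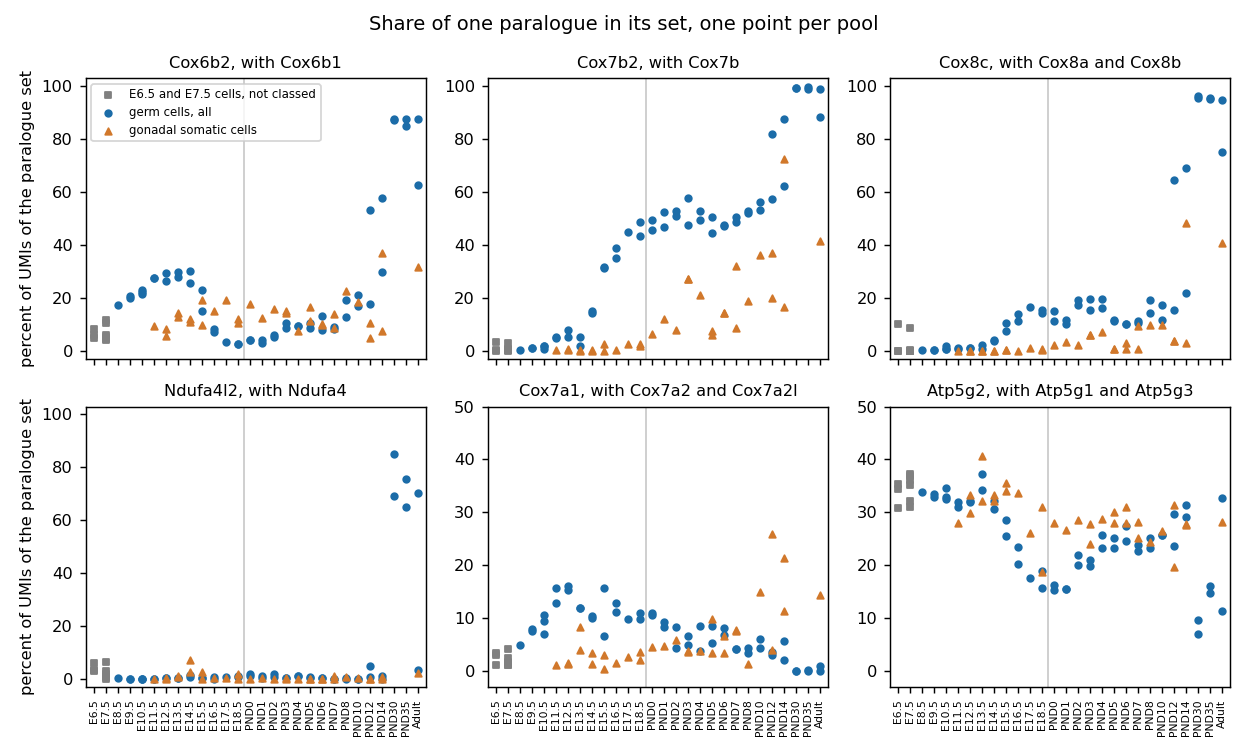
Share of the UMIs of each paralogue set (percent, vertical axis) taken by its members in germ pools by time-point (horizontal axis), with the grey vertical line at birth. Cox6b2 falls to 2.54% at E18.5 while Cox7b2 climbs to 46.1% at the same time-point, and both exceed 87% at PND30.

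The pools of PND12 to adult are mixtures, and their shares differ between replicates along with their make-up. At PND12 the Cox6b2 share was 17.6% in replicate 1, where under 10 cells were spermatocyte-like, and 53.3% in replicate 2, where 72.4% of germ cells were. At PND14 it was 29.8% and 57.6%, with 44.6% and 95.6% spermatocyte-like cells. Within spermatocyte-like cells alone the share was 40.1% at PND10, 61.7% at PND12, 41.9% and 58.5% at PND14, and 87.5% to 90.4% at PND30. Cox7b2 took 79.5% to 91.4% of its pair in spermatocyte-like cells of PND10 to PND14, ahead of Cox6b2 and Cox8c in each of these pools. Adult replicate 1 stands apart, with 62.8% for Cox6b2, 75.2% for Cox8c and 3.27% for Ndufa4l2 against 87.7%, 94.8% and 70.2% in replicate 2. Its germ cells were 99.1% spermatocyte-like and its somatic markers summed to 404 CPM against 33.4 CPM in replicate 2, and the part these played was not tested.

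The promoters of paralogues that moved apart are shown to set their sequence beside their course. Of the 84 members, 66 had a promoter in the RefSeq table for GRCm38.p6, taken from 250 bases before to 50 bases after the start of the gene. Capitals mark matches to CTTCCGG, the other strand of the ETS motif CCGGAAG, and each sequence runs 5′ to 3′ on the strand of the gene. Cox8a (chr19:7217567-7217866, minus strand) and Cox6b1 (chr7:30626065-30626364, minus strand) are the widely expressed forms, and Cox6b2 (chr7:4753045-4753344, minus strand) and Cox7b2 (chr5:71548156-71548455, minus strand) the testis forms.
Cox8a: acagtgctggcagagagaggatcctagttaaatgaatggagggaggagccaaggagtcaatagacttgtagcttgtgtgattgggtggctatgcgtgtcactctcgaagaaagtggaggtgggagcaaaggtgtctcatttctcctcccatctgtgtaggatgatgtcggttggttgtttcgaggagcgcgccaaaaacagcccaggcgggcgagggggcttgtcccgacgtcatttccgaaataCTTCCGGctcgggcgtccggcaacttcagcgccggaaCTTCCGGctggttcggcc
Cox6b1: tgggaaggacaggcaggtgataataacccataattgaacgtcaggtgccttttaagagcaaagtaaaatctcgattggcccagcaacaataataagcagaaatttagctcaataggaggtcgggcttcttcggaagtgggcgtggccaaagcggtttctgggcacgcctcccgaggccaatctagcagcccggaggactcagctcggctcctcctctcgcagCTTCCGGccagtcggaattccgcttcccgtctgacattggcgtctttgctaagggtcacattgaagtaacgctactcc
Cox6b2: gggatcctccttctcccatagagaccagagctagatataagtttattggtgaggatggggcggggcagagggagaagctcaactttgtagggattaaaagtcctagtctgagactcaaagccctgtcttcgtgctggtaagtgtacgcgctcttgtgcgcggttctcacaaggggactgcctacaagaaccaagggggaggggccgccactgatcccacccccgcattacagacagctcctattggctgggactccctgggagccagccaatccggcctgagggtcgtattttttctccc
Cox7b2: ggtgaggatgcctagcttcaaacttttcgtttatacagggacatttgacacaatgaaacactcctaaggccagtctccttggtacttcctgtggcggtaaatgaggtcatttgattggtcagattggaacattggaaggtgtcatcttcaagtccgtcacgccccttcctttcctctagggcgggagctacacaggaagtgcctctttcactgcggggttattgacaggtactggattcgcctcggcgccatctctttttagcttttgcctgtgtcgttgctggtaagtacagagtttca

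In Cox8a the matches start at positions -5 and 33 from the gene start and in Cox6b1 at -28, and neither testis form nor Cox7b holds a match to any of the 4 motifs searched. Both strands were searched, and a match is no proof of binding. The ETS motif was in 15 of 66 member promoters (22.7%) and 9.12% of all 27025 promoters of that length. The shortened NRF1 motif GCGCNTGCG was in 21 of 66 (31.8%) against 6.59%, the shortened YY1 motif AANATGGCG in 8 (12.1%) against 2.51%, and the CRE TGACGTCA in 4 (6.06%) against 1.88%.

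Genes with a course most like that of the testis isoforms were ranked by Pearson's r of log2(CPM + 1) over the 51 germ pools, as a description, since neighbouring pools share their stage. For Cox7b2 these were 1700018B24Rik (r = 0.97), Timm8a2, Sycp2, Tuba3b and Ankrd31, the last with r = 0.95. Cox8c was closest to Usp2 and Dnajc5g (r = 0.97), 4933416C03Rik, Smim24 and Cdkl2 (r = 0.96), and Cox6b2 to Gps1 (r = 0.94), Mmachc, Phpt1, Fahd2a and Spout1 (r = 0.91). The 3 lists had no gene in common.

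Germ cells were also compared with somatic cells of the same pool, over 13 pools of E11.5 to E18.5 and 13 pools of PND0 to PND8 with edgeR's test on 16784 genes and the pool as a block. More members were called lower than higher in germ cells in both periods. Before birth 36 members were lower and 13 higher in germ cells, where 65.3% of all genes were called, 40.7% higher and 24.6% lower, and after birth 51 were lower and 4 higher, where 54.9% were called, 32.6% higher and 22.3% lower. The member medians of the germ minus somatic log2 fold change were -0.19 before and -0.39 after birth, against 0.38 and 0.25 for all genes. With plain library sizes the counts were 29 lower and 24 higher before birth and 31 lower and 13 higher after it. Somatic pools held germ cell markers at 77.9 to 467 CPM in all before birth and 225 to 1287 CPM after it, against 1300 to 5501 CPM in germ pools of E8.5 to PND8, whose somatic markers summed to 51.02 to 717 CPM. Without the 5 pools whose somatic cells exceeded 1000 CPM, 28 were lower and 19 higher before birth and 35 lower and 7 higher after it.

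Before birth the testis isoforms Cox7b2 and Cox8c were called higher in germ cells, although for each of them the ranges of germ and somatic pools overlapped. Cox7b2 had a mean of 116.8 CPM in germ and 4.51 CPM in somatic cells (4.64 ± 0.38, adjusted p = 8.3e-12), and Cox8c 39.8 and 1.96 CPM (4.30 ± 0.35, adjusted p = 7.0e-12). Cox7a1 had 74.1 to 211 CPM in germ and 4.03 to 70.02 CPM in somatic cells without overlap (2.49 ± 0.30, adjusted p = 1.9e-08). Cox6b2 was not called by edgeR's test, with 10.9 to 266 CPM in germ and 57.7 to 219 CPM in somatic cells (-0.09 ± 0.51, adjusted p = 0.89).

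Among core subunits Ndufv1, which binds NADH in complex I, was higher in germ cells, with 280 to 447 CPM against 156 to 242 CPM and no overlap (0.73 ± 0.10, adjusted p = 1.2e-07). Lower in germ cells were the stalk subunits of ATP synthase Atp5h (369 and 661 CPM; -1.09 ± 0.18) and Atp5f1 (316 and 488 CPM; -0.95 ± 0.19), and Uqcr10 (398 and 647 CPM; -0.94 ± 0.19). In complex II Sdha was higher in germ cells (0.29 ± 0.10, adjusted p = 0.011, lost in 8 of 26 refits without 1 pool), and Sdhb, Sdhc and Sdhd were lower, with log2 fold changes of -0.28, -0.60 and -0.79.

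After birth Cox8c and Cox7b2 remained higher in germ cells, each by 1.86 (SE 0.29 and 0.31, adjusted p = 5.8e-06 and 1.4e-05), with 98.1 against 30.5 CPM and 281 against 74.7 CPM. The other members called higher were Ndufv1 (376 and 236 CPM) and Ndufa9 (292 and 177 CPM), both of complex I and both without overlap. Cox6b2 was now lower in germ cells, at 16.1 to 87.8 CPM against 57.7 to 213 CPM (-1.49 ± 0.45, adjusted p = 0.0059). Large differences in the same direction were found for the complex I genes Ndufb4 (377 and 606 CPM; -0.95 ± 0.14), Ndufc1 (356 and 543 CPM; -0.92 ± 0.21) and Ndufa3 (400.3 and 607 CPM; -0.90 ± 0.15) and for Atp5j of ATP synthase (542 and 807 CPM; -0.84 ± 0.13).

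The difference between the periods was itself called for 13 members, all more negative after birth, where 21.8% of all genes were called, 14.8% in that direction and 6.99% in the other. The largest were Cox7b2 (-2.78 ± 0.48, adjusted p = 1.1e-04), Cox8c (-2.45 ± 0.45) and Cox7a1 (-2.40 ± 0.41). The count was 6 without the 5 pools of high germ marker sums, and it ranged from 6 without E14.5 replicate 2 to 19 without E18.5 replicate 1. In the somatic pools the Cox7b2 share of its pair moved from 0.200% at E11.5 to 6.34% at PND0 and 27.2% at PND3, while their germ marker sum had a median of 203 CPM before birth and 653 CPM from PND0 to PND8, and the part of germ cell transcripts in this rise was not tested.

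**Figure D4:**
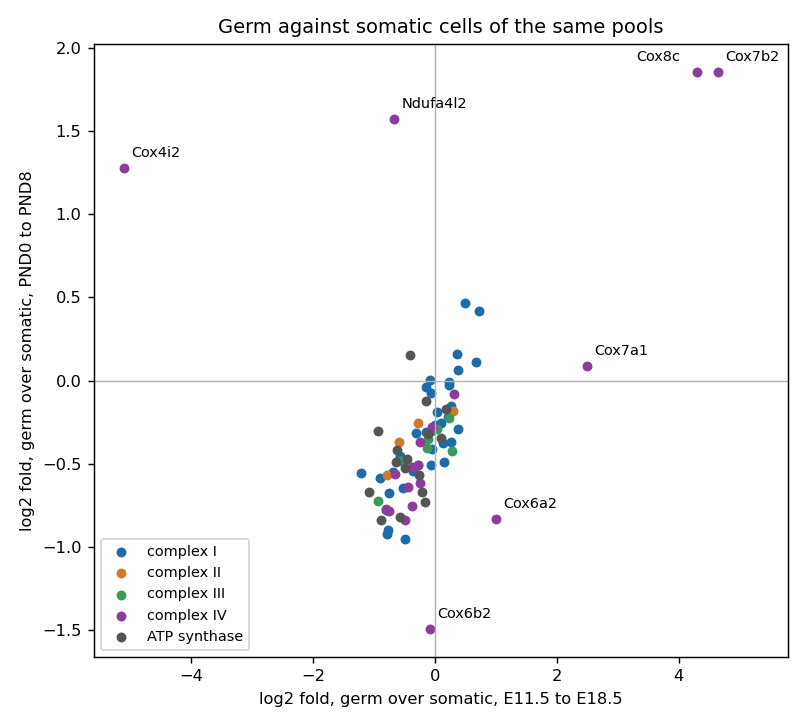
Germ minus somatic log2 fold change of the 82 members before birth (horizontal axis) and after birth (vertical axis), with 7 members named beside their points and colours for the complexes. Cox7b2 and Cox8c lie far to the right, at 4.64 and 4.30 before birth and 1.86 after it, and most other members lie below 0 on the vertical axis.

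Among the pools of E6.5 and E7.5 the set mean lay between 317 and 384 CPM in the 9 pools, below every migrating PGC pool. Cox6b2 took 4.17% to 11.7% of its pair and Ndufa4l2 stood at 0.725 to 41.1 CPM. Cox8c was near 0 in 7 of the pools, at 0 to 1.22 CPM, but reached 67.6 CPM in E6.5 replicate 2 and 57.4 CPM in E7.5 replicate 2 of the random gate. These are the same pools in which Cox7b2 was highest, at 17.7 and 14.3 CPM against at most 3.78 CPM elsewhere. Round spermatid markers summed to 44.7 and 80.9 CPM in these 2 pools and to between 0.794 and 41.1 CPM in the other 7.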

How the data were processed

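Cells were profiled by the authors with STRT-seq, a modified Smart-seq2 that reads 3′ ends with UMIs. Per the labels, reads were processed with UMI-tools, aligned with STAR to mm10 and assigned with featureCounts (Subread); the study's methods add that only uniquely aligned reads were counted, so genes with near-identical copies may be understated, and the strand setting is not given in the sources used here. The deposited values are UMI counts per gene and cell. GEO's labels of all 147 libraries give only library names, so time-point, replicate, genotype and gate came from the authors' deposited table of cells, and the label-based sample table leaves every library without a group.

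Cells with at least 2000 genes and 10000 to 1000000 UMIs were kept, which left 11598 of 11896 wild-type cells, and no barcode of a library was listed again. They were clustered (Python 3.11.15, scanpy 1.11.5, leidenalg 0.10.2; 1000 variable genes without the members and lists, 30 principal components, 20 neighbours, resolution 1) into 38 clusters, which were classed by marker genes. No doublet caller was run. Rebuilt classes may differ from those of the study. Classed cells of the 61 combinations of time-point and replicate were summed to pools where at least 10 were found, which gave no germ pool for some. UMI totals limit precision, and intervals cover counting error only.

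Pools were tested in edgeR 4.0.16 (R 4.3.3; quasi-likelihood test, TMM, default expression filter, Benjamini-Hochberg over all genes tested), with the clustering genes and markers left out, SE taken as the log2 fold change over the square root of F, and no replicate block in the germ cell series. DESeq2 1.42.0, other scalings, filters, classes and pools were tried as alternatives. Replicates are the authors' separate collections of a time-point. The 4N and 1N pools of a replicate come from the same animal by the study's sample list (correlation of their deviations -0.07), and a fit with that animal as a block was added. The scripts were tested on simulated counts with known changes and the same spread for every gene. Of 2-fold changes, 84.6% were recovered from arresting to quiescent germ cells and 13.6% from 4N to 1N cells. For germ against somatic cells before birth it was 98.5%. From 4N to 1N cells 0% of 1.5-fold and 88.9% of 4-fold changes were recovered, so a missing call there says little about smaller changes. False calls made up 7%, 4.5% and 4.4% of the calls in these comparisons, in this order.

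Genes named are the 5 largest rises and falls called in each comparison, all members with a paralogue, and Sdha to Sdhd. A result for 1 gene that this rule names is not reported here. The members, the lists beside them (13 mitochondrially encoded subunits, carriers and subunits outside the rule, assembly factors, the tricarboxylic acid cycle with pyruvate dehydrogenase, and regulators) and the tests were chosen with earlier results of these data known. Positions are from GENCODE M21 (mm10), where 82 members had a single gene. Exons of 4 members, Atp5g2 among them, overlap a gene on the same strand. Those of 25 members overlap a gene on the other strand, among them Atp5f1, Uqcrc2 and Ndufa4l2. Reads of the shared stretches may be ambiguous, on the other strand only if reads were counted without regard to strand. Promoters are RefSeq's.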

Additional observations from a re-analysis of the deposited data

Results flagged for a closer look

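In groups of 4 to 10 pools, the highest or lowest pool of each paralogue and complex II gene was set against the gap to its nearest neighbour by Dixon's criterion, and 7 tests (5.3%) passed it, where chance gives about 1 in 20. Among migrating PGCs, replicate 2 of E10.5 had the most Cox8c, at 11.9 CPM against 2.85 to 5.46 CPM, and replicate 3 of E10.5 the most Atp5g1, at 849.7 CPM against 696 to 741 CPM, and Atp5g2, at 643 CPM against 522 to 551 CPM. Among gonadal PGCs, replicate 1 of E13.5 stood out for Cox8c at 16.2 CPM against 4.85 to 8.00 CPM, and replicate 1 of E11.5 for Sdhd at 113.2 CPM against 199 to 237 CPM. In quiescent prospermatogonia replicate 2 of PND0 held 731 CPM of Cox6a1 against 647 to 669 CPM, and in spermatogonia replicate 1 of PND6 held 331 CPM of Sdhb against 391.8 to 399 CPM.

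The germ minus somatic difference changed from before to after birth by edgeR's test of that change for 13 of 82 members, each by a negative log2 value. Over all genes 21.8% were called, 14.8% in that direction, and the median change was -0.22 for members and -0.26 for all genes. In complex IV these were Cox7b2 (-2.78), Cox8c (-2.45), Cox7a1 (-2.40) and Cox7a2l (-0.38). Complex I gave Ndufs4 (-0.67), Ndufa8 (-0.63), Ndufa6 (-0.63), Ndufb6 (-0.55) and Ndufa10 (-0.50). The remaining members were Uqcrfs1 (-0.69) and Uqcrc1 (-0.45) of complex III, Sdha (-0.47) of complex II and Atp5g3 (-0.35) of ATP synthase. The calls of Sdha, Cox7a2l and Atp5g3 were lost in 8, 10 and 11 of 26 refits without 1 pool. The cause was not tested.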

How the results depend on the processing

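The total counts of members called moved by less than 1.5-fold under most alternatives, and the cause of the larger moves below was not tested. These totals do not separate rises from falls, whose balance also moved with the scaling, as given above for the step to 4N cells. From 4N to 1N cells 15 members were called, against 27 with DESeq2's size factors, 32 by DESeq2's Wald test, 56 with clusters in place of the sort gates and 31 with plain library sizes. The cluster setting also added pools of PND35 and adult. From arresting germ cells to quiescent prospermatogonia plain library sizes gave 39 in place of 60. For the change of the germ minus somatic difference at birth, 13 were called, against 6 without the expression filter, 6 with at least 20 cells per pool, 8 with cells classed by markers alone and 6 without the pools of high germ marker sums in somatic cells. Plain library sizes and the omission of those pools were chosen after seeing the data. The mean of the cells' own CPM in place of the pooled CPM gave set means of 454.6 CPM in migrating PGCs, 343.6 CPM in quiescent prospermatogonia and 414.6 CPM in spermatogonia, above the pooled values by more than 1 SD.

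Leaving out 1 pool at a time gave 1 to 3 members from migrating to gonadal PGCs (fewest without E12.5 replicate 2), 54 to 63 to arresting germ cells, 47 to 66 to quiescent prospermatogonia, 66 to 71 to spermatogonia, 36 to 53 to 4N cells and 7 to 20 to 1N cells (7 without replicate 2 and 20 without replicate 1 of the 1N pools). For germ against somatic cells the ranges were 43 to 52 before birth, 38 to 59 after it and 6 to 19 for the change between them. No member called in a comparison changed sign in these refits.

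The direction of some genes turned. With plain library sizes these were Atp5g3 from gonadal PGCs to arresting germ cells (0.21), Atp5g3 (0.082), Cox4i1 (0.034) and Cox6a1 (0.035) from there to quiescent prospermatogonia, Cox4i1 (-0.081) to spermatogonia, Cox4i1 (-0.34) and Sdhb (-0.29) to 4N cells, and Cox7a2l (0.20) and Sdhb (0.023) in germ against somatic cells after birth. Cox4i1 also turned to -0.037 in the step to spermatogonia with DESeq2's size factors and Wald test. Sdha in 4N cells was 0.26 by the Wald test and 0.35 with clusters. From 4N to 1N, clusters gave -1.30 for Atp5g2, -0.69 for Cox4i1, -0.48 for Cox6a1, -0.59 for Cox6b1, -1.31 for Cox7b, -0.77 for Cox8a and -0.15 for Ndufb11.

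Same-numbered pools of different time-points come from different animals and did not deviate together (correlations from -0.23 to 0.16 over 21 pairs of groups), so these numbers were not taken as pairs. With the replicate number as a block, the 6 steps gave 2, 59, 59, 68, 42 and 15 members, each within 1 of the count without it. With the PND30 animal as a block, chosen after seeing the data, 17 members were called from 4N to 1N, 2 higher and 15 lower, and it changed no call of a member named in that step. Without the pool as a block, germ against somatic cells gave 47 before birth, 54 after it and 16 for the change.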

Other observations

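Carriers and subunits outside the naming rule were called lower before birth, higher in spermatogonia and in both directions in 4N cells. Of the 6 genes tested, which take in cytochrome c1 (Cyc1), the acyl carrier protein Ndufab1 and Usmg5 of ATP synthase, 1 was called higher from migrating to gonadal PGCs, 5 were lower to arresting germ cells, 6 were lower to quiescent prospermatogonia and 6 were higher to spermatogonia. Over all genes 4.84% were called higher to gonadal PGCs and 16.6% lower to arresting germ cells. The shares were 16.6% lower to quiescent prospermatogonia and 21.6% higher to spermatogonia. In 4N cells 2 of the carriers and subunits were higher and 3 lower, where 33.2% of all genes were called higher and 27.1% lower. Cyc1, for example, had means of 271, 217, 448 and 77.1 CPM in arresting germ cells, quiescent prospermatogonia, spermatogonia and 4N cells. Usmg5 had 562 CPM in spermatogonia and 108.1 CPM in 4N cells.

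In the tricarboxylic acid cycle, Mdh2, the mitochondrial malate dehydrogenase, went from 673 CPM in spermatogonia to 35.5 CPM in 4N cells (log2 fold change -3.76 ± 0.22, adjusted p = 6.9e-15 by edgeR's test). Citrate synthase (Cs) went from 308 to 57.4 CPM and fumarase (Fh1) from 204 to 30.6 CPM, both called. Sdha, the complex II subunit that shares this cycle, had a change of -0.09 ± 0.16 in the same step (adjusted p = 0.66). Of the 18 genes of this list 13 were called lower from gonadal PGCs to arresting germ cells, 9 were lower to quiescent prospermatogonia, and 12 were higher and 1 lower to spermatogonia. Over all genes 16.6% were called lower to arresting germ cells and 16.6% lower to quiescent prospermatogonia. To spermatogonia 21.6% were higher and 33.5% lower. Among the 12 regulators of mitochondrial genes 3 were called higher and 6 lower in 4N cells, where 33.2% of all genes were called higher and 27.1% lower. Tfam had 28.95 CPM there and 221 CPM in 1N cells (3.11 ± 0.36, adjusted p = 2.7e-07), while the 13 mitochondrially encoded subunits were called lower.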
